A study of Homo sapiens with 4 samples.

Results

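The regions described are the intervals at which V5-tagged SOX2, or its DNA-binding domain alone, was found by CUT&RUN around 9 genes of the neural progenitor programme: PAX6, NES, POU3F2, NEUROG2, OTX2, HES1, NOTCH1, GLI2 and GLI3. An interval was taken when it overlapped the body of 1 of these genes, or the 50 kb on either side of it, by at least 1 bp. The windows so defined span 1.58 Mb. They held 31 of the 58827 distinct intervals of the SOX2 and SOX2-DBD lists together, of which 26 were in the SOX2 list only (SOX2-only), 5 were in both lists (shared) and 0 were in the SOX2-DBD list only. All 9 gene symbols were matched in the annotation.

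The cells were BJ fibroblasts, an established line from human foreskin, in which full-length SOX2 or SOX2-DBD had been introduced and expressed for 48 h. In CUT&RUN an antibody, here against the V5 tag, tethers a nuclease to the tagged protein, and the DNA cut free is sequenced. There were 2 samples of each protein, and the lists were deposited under replicate 1 of each. Whether they were made from that sample alone is not stated. The factor was supplied from outside to cells that are not neural, and no sample without a V5-tagged protein was analysed here. No list was given for a second sample of either protein here, so the counts below have no error between replicates, and the intervals given on shares (Wilson) and densities (exact Poisson) cover counting error only. Read depth is unknown, which limits every statement that an interval was not listed.

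SOX2 is a transcription factor of the SRY-related HMG-box family that maintains neural progenitors. Its HMG domain binds a short core sequence, ACAAAG or ACAATG, and in neural cells it often binds beside POU factors such as POU3F2 or beside PAX6. NES, which encodes the intermediate filament nestin, has a neural enhancer in its second intron at which SOX and POU factors act together. The Notch receptor NOTCH1 and its target HES1, a repressor, hold progenitors undifferentiated, while NEUROG2 drives them towards neurons. GLI2 and GLI3 are the transcriptional effectors of Hedgehog signalling, and OTX2 specifies the forebrain and midbrain.

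Sequences are shown first for the sites on which the comparison of the proteins rests, and 5 of them are all the sites near these genes that the SOX2-DBD list also held. For GLI3, POU3F2 and NEUROG2 they are the shared intervals, and for HES1, PAX6 and GLI2, which had none, the SOX2-only interval of highest total signal that touches no exon. Each is the central 200 bp of the interval, or the whole interval of 168 bp at POU3F2, on the plus strand of hg19. Capitals mark every match to the SOX core (ACAAAG or ACAATG, or their reverse complements), to the AP-1 sequence (TGACTCA or TGAGTCA) and to the POU octamer (ATGCAAAT or its reverse complement).
GLI3, chr7:41951765-41951964: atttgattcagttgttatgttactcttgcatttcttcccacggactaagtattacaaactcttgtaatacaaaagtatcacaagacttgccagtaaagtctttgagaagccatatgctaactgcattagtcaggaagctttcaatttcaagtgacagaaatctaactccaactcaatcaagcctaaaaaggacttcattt
GLI3, chr7:42183402-42183601: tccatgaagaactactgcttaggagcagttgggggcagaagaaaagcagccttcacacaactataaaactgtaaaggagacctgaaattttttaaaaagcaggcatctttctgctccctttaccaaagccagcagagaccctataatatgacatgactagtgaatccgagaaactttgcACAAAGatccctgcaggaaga
GLI3, chr7:42273732-42273931: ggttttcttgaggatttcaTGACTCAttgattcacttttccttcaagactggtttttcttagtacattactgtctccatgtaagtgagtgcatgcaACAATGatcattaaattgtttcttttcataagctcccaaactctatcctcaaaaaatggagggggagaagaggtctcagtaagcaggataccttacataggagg
POU3F2, chr6:99336312-99336479: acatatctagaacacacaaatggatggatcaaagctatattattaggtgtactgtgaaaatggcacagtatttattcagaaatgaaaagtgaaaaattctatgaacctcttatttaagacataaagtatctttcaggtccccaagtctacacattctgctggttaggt
NEUROG2, chr4:113447370-113447569: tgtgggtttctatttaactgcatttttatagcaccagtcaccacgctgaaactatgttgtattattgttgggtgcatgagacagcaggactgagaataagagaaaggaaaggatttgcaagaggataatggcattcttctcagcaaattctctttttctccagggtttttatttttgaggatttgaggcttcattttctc
HES1, chr3:193882862-193883061: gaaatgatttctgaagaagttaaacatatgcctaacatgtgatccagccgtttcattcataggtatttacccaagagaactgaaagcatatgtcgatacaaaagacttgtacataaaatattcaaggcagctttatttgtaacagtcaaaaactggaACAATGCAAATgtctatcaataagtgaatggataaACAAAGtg
PAX6, chr11:31779296-31779495: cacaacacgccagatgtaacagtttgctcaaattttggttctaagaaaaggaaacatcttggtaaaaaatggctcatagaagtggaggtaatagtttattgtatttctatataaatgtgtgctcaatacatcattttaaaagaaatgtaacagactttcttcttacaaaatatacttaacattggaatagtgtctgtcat
GLI2, chr2:121513589-121513788: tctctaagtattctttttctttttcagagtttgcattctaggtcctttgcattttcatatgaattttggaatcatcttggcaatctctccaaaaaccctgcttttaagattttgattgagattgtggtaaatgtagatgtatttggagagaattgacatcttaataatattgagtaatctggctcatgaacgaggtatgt

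Of the 5 shared sites, 2 held the SOX core in this central stretch, both within GLI3. The GLI3 site in the first intron had the letters ACAATG from position 97 of the stretch shown and an AP-1 sequence from position 20. The site in the third intron had ACAAAG from position 180. The shared stretches at POU3F2 and NEUROG2, and the GLI3 site beyond the end of the gene, had no match to any of these sequences within the letters shown. Over its whole length of 1036 bp that GLI3 interval held 2 matches to the SOX core and 1 to AP-1, whereas the POU3F2 and NEUROG2 shared intervals held 0. In the HES1 stretch the SOX core ACAATG began at position 158 and ran into an octamer with which it shares 3 letters, and a second SOX core, ACAAAG, began at position 193. The PAX6 and GLI2 stretches had 0 matches, although the whole intervals of 1167 bp and 1337 bp held 5 and 4 matches to the SOX core. A match is a description of the letters and does not show where the protein was bound.

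Intervals of the SOX2 list lay in the windows of 6 of the 9 genes, against 69.5% of 20162 protein-coding genes treated in the same way. The 9 genes were therefore close to the background in this respect. Over all windows the density was 19.6 intervals per Mb (95% interval 13.3 to 27.8), and over the determined bases of the genome it was 20.3. GLI3 supplied 15 of the 31 intervals, and without it the density was 13.6 per Mb. The order of the densities was POU3F2, GLI3, NEUROG2, HES1, PAX6 and GLI2, followed by NES, OTX2 and NOTCH1 with 0 intervals each. The counting intervals of neighbours in this order overlapped throughout.

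**Figure D1:**
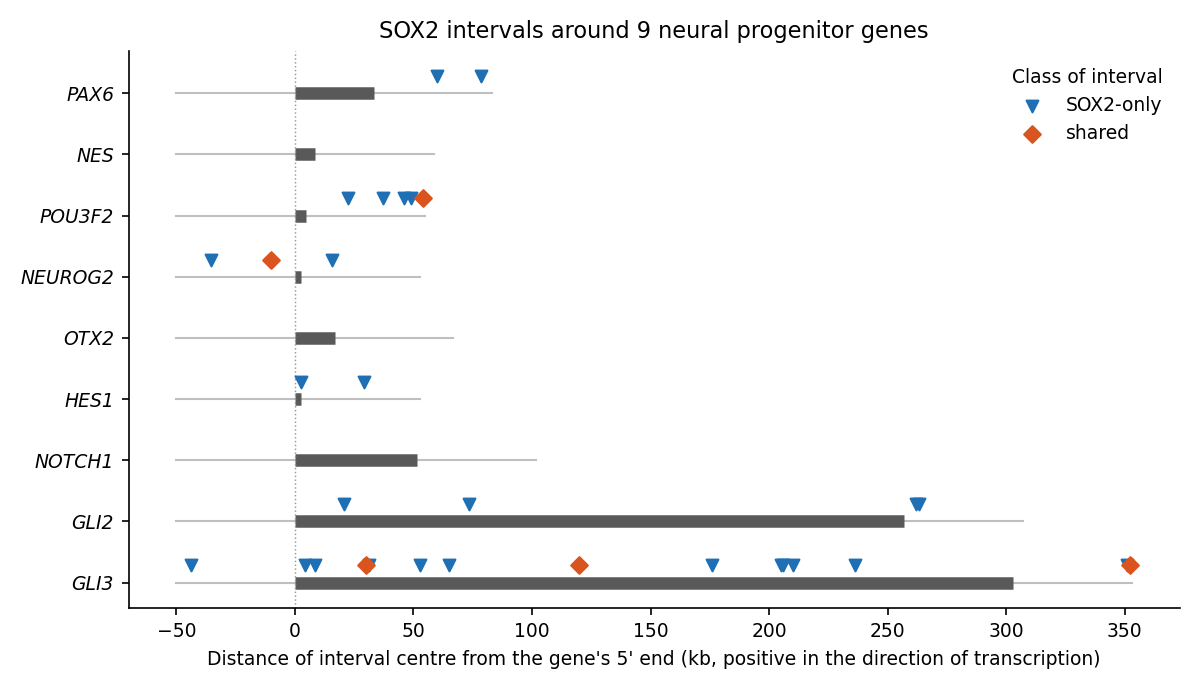
Position of the 31 SOX2 intervals, as the distance of their centres from the 5′ end of each gene in kb (horizontal axis), with 1 row for each of the 9 genes. Thick bars are gene bodies, thin lines the 50 kb on either side, triangles SOX2-only and diamonds shared intervals. GLI3 has 15 intervals, while NES, OTX2 and NOTCH1 have none.

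**Figure D2:**
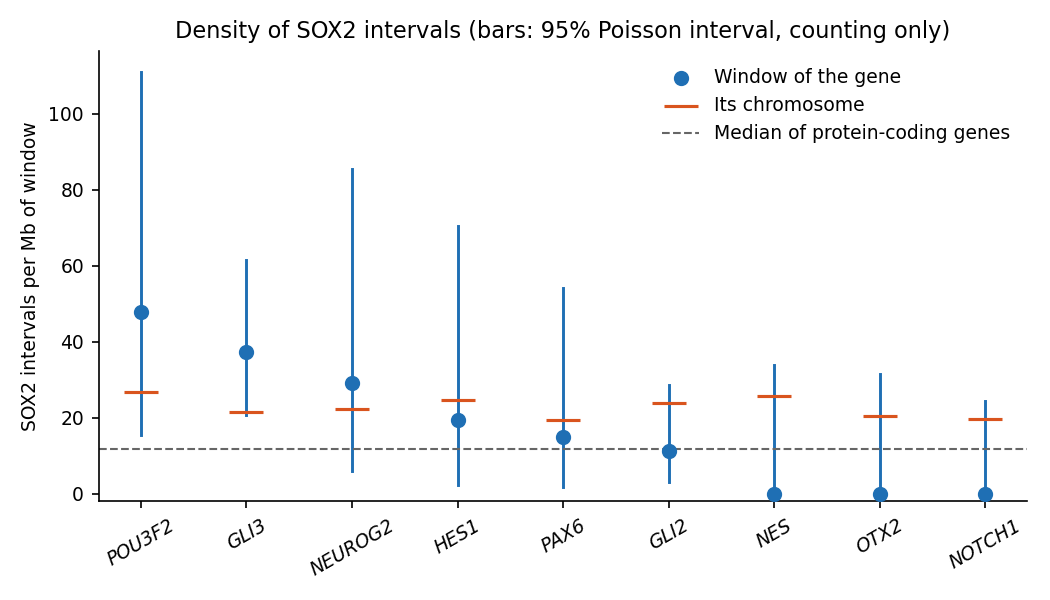
SOX2 intervals per Mb of window for each gene (points, with 95% Poisson intervals from counting), beside the density of the chromosome it lies on (short horizontal lines) and the median of protein-coding gene windows (dashed, 11.7 per Mb). POU3F2 has the highest point at 47.7 per Mb, and its bar reaches down to 15.5, below the density of its chromosome.

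GLI3, whose product acts mostly as a repressor of Hedgehog target genes, had 12 SOX2-only and 3 shared intervals in a window of 403 kb on chromosome 7. This is 37.2 per Mb (20.8 to 61.4), against 21.5 for chromosome 7, and 80.9% of protein-coding genes had a lower density. As many as 15 intervals were found at 4.32% of protein-coding genes. Long genes collect more intervals, and among the 289 genes with a window of 350 to 410 kb the median was 10.0 intervals and 32.5% had at least 15. Of the 15 intervals, 12 lay in the gene body.

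The interval of highest total signal near GLI3 was shared and lay beyond the 3′ end of the gene, 352 kb from its 5′ end, at chr7:41951347-41952382. Its total signal was 7253. That value stood above 98.1% of the SOX2 list when ranked within it, and it was the highest of all 31 intervals. For shared intervals the group in which the signal was measured is not stated. The next intervals by total signal were SOX2-only. One of 4249 lay 8.27 kb from the 5′ end at chr7:42295002-42295857, inside the gene but outside its canonical transcript. Another of 4190 lay in intron 7 at chr7:42066835-42067822. Its maximum signal of 18 was the highest near GLI3, against 13 for the shared interval beyond the 3′ end, so the ranking depends on the measure. The remaining shared intervals were chr7:42273573-42274090 in intron 1, with a total signal of 2796, and chr7:42183260-42183743 in intron 3, with 2651. The SOX2-only interval nearest the 5′ end, at chr7:42299434-42299887, was 4.04 kb from it, with a total signal of 2211. It too lay outside the canonical transcript. Distances are taken from the outermost annotated end of the gene, which lies upstream of the canonical transcript. Intron 1 of that transcript ends at position 42276569 on its 5′ side, close to the shared interval in this intron.

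Several GLI3 intervals lay close together. The shared interval in intron 1 was 0.971 kb from a SOX2-only interval of 655 bp. The shared interval beyond the 3′ end was 0.425 kb from a SOX2-only one of 521 bp. In intron 4, 3 SOX2-only intervals with total signals of 1928, 2115 and 1557 lay within gaps of 3.12 and 0.603 kb. The single interval upstream of the gene was SOX2-only, 44 kb from the 5′ end, with a total signal of 1606.

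GLI2, the main activator among the Hedgehog effectors, is of similar length and had far fewer intervals. Its window of 357 kb on chromosome 2 held 4 SOX2-only intervals and 0 shared, or 11.2 per Mb (3.05 to 28.7), against 23.8 for chromosome 2. Among the 289 genes of like window length, 75.8% had at least 4. The counting intervals of GLI2 and GLI3 overlapped, and the difference itself was not tested. The base composition also differed, with a GC content of 50.8% in the GLI2 window and 41.4% in that of GLI3, and the part of this in the difference was not tested.

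The GLI2 interval of highest total signal lay in intron 1 at chr2:121513021-121514357, 20.5 kb from the 5′ end. Its total signal of 5828 ranked above 95.1% of the SOX2 list. It was not found in the down-sampled SOX2 list, a further list deposited for the same sample with positions and no signal. A second interval, in intron 2, had a total signal of 1820. Its maximum signal was 12, against 11 for the interval in intron 1, and its width 311 bp against 1337 bp. The last pair, with 1608 and 1769, lay just past the end of the gene and only 0.302 kb from each other.

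At POU3F2, a POU-domain factor that partners SOX2 in neural progenitors, 4 SOX2-only intervals and 1 shared interval lay in a window of 105 kb on chromosome 6. The density of 47.7 per Mb (15.5 to 111) exceeded that of 88.7% of protein-coding genes, and the interval reached below the 26.8 of the chromosome. None of the 5 lay in POU3F2 itself. All were on its 3′ side, at distances of 22.4 to 53.9 kb from its 5′ end, and 4 of the 5 centres were inside the neighbouring gene FBXL4, which encodes a mitochondrial F-box protein. The shared interval, chr6:99336312-99336479, lay in intron 7 of FBXL4 with a total signal of 2570. The SOX2-only interval of highest total signal, 3992, was in the same intron at chr6:99330824-99331780. The one nearest POU3F2 lay outside genes at chr6:99304571-99305149, with a total signal of 1515. The others, with 1190 and 2647, had their centres in exons 10 and 8 of FBXL4. The windows thus assign to POU3F2 intervals that lie in another gene, and which gene they serve was not measured.

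Upstream of POU3F2, the nearest SOX2 interval was 1327 kb away, and this stretch held 0 intervals of the SOX2-DBD and down-sampled lists and 0 undetermined bases. An upstream distance this long or longer was found at 2.48% of the 20022 protein-coding genes with an interval upstream, for which the median was 59.6 kb. No other protein-coding gene lies in this stretch. It was singled out after its value was seen.

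NEUROG2, the proneural factor, had 2 SOX2-only intervals and 1 shared in 103 kb on chromosome 4, or 29.2 per Mb (6.03 to 85.4) against 22.4 for the chromosome. The shared interval, at chr4:113447343-113447597 with a total signal of 2285, was the nearest to the gene, 10.1 kb upstream of its 5′ end, in intron 2 of the antisense transcript NEUROG2-AS1. The SOX2-only interval of highest total signal lay 15.5 kb downstream of the 5′ end at chr4:113421570-113422178, outside genes, with 2992. The third, in intron 22 of the neighbouring gene ZGRF1, had 1286. None of the 3 was found in the down-sampled list.

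PAX6, the paired-box factor of the eye and forebrain, had 2 SOX2-only intervals in 133 kb on chromosome 11, or 15 per Mb (1.82 to 54.2) against 19.5 for the chromosome. Both lay downstream, in the last intron of ELP4, the adjoining gene whose introns are known to carry enhancers of PAX6. The stronger and nearer was chr11:31778813-31779979, 60.1 kb from the 5′ end of PAX6, with a total signal of 5011 that ranked above 91.3% of the SOX2 list. The other, chr11:31760683-31761298, was 78.5 kb away with 1851. Both were also in the down-sampled list, and the nearest SOX2-DBD interval was 122 kb from the gene body. The gene body and the 50 kb upstream of it had no interval.

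At HES1, the Notch-responsive repressor, the 2 intervals were SOX2-only, or 19.5 per Mb (2.36 to 70.4) against 24.7 for chromosome 3. The first, chr3:193856137-193856455, lay 2.36 kb from the 5′ end, inside exon 4 and entirely within untranslated sequence, and its total signal of 1528 was in the lower part of the list, above 16.9% of it. It was the nearest of the 31 intervals to a member's 5′ end. The second, chr3:193882418-193883506, was 29.0 kb downstream and outside genes, with a total signal of 4357, above 86.4% of the list. The 2 intervals had the same maximum signal, 13, and differed in width, with 319 bp and 1089 bp. Neither was in the down-sampled list. Upstream of HES1 the next interval of the full SOX2 list was 440 kb away, a distance reached or passed by 10.6% of genes, and the down-sampled list held 1 interval within this stretch.

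The receptor gene NOTCH1, the filament gene NES and the homeobox gene OTX2 had no interval in the SOX2 or SOX2-DBD list, nor in the down-sampled list, within 50 kb. At NOTCH1 the nearest SOX2 interval was 252 kb from the gene body, a distance reached or passed by 7.81% of protein-coding genes. For OTX2 it was 166 kb (12.1% of genes) and for NES 97.2 kb (19.4%). The second intron of NES, 1.69 kb long at chr1:156643320-156645007, contains 4 matches to the SOX core and no octamer of the form searched, and no interval overlapped it. With 0 intervals, the counting limits were 24.3 per Mb for NOTCH1, 31.6 for OTX2 and 34.0 for NES, each above the density of its own chromosome (19.7, 20.4 and 25.6). Taken singly, each window is too short for 0 intervals to be set apart from the density of its chromosome. The 3 windows were put together because they had 0, and their joint count was not tested. Among genes with windows of 100 to 160 kb, the range that covers 7 of the 9 members, 62.2% had at least 1 SOX2 interval, and 4 of these 7 members did.

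Protein-coding genes were divided into 10 equal bins by the GC content of their windows, and from the second bin to the highest the median density fell or stayed level. The lowest bin departed from this order, with a median of 29.7 intervals per Mb against 34.5 in the second, and 28.3% of its genes had none against 15.9%. None of the 9 genes was in the lowest or second bin. In the highest bin the median was 0 intervals per Mb and 73.8% of genes had none, while in the third bin the median was 32 and 14.4% had none. NOTCH1 (58.7% GC) and NES (53.2%) were in the highest bin, and POU3F2 (39.8%) and NEUROG2 (40.2%) in the third. OTX2 stood apart from its neighbours in composition, since its window had 41.8% GC and in its bin, the fourth, 14.7% of genes had no interval. That share covers windows of all lengths, and the OTX2 window is 117 kb. Over all GC contents, 62.2% of genes with windows of 100 to 160 kb had an interval, against 69.5% of all genes. POU3F2, GLI3, HES1 and GLI2 lay above the medians of their bins, which were 32, 24.8, 9.60 and 0 per Mb. NEUROG2 and PAX6 lay below theirs, which were 32 and 19.3 per Mb. The part of base composition in these counts was not tested.

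**Figure D3:**
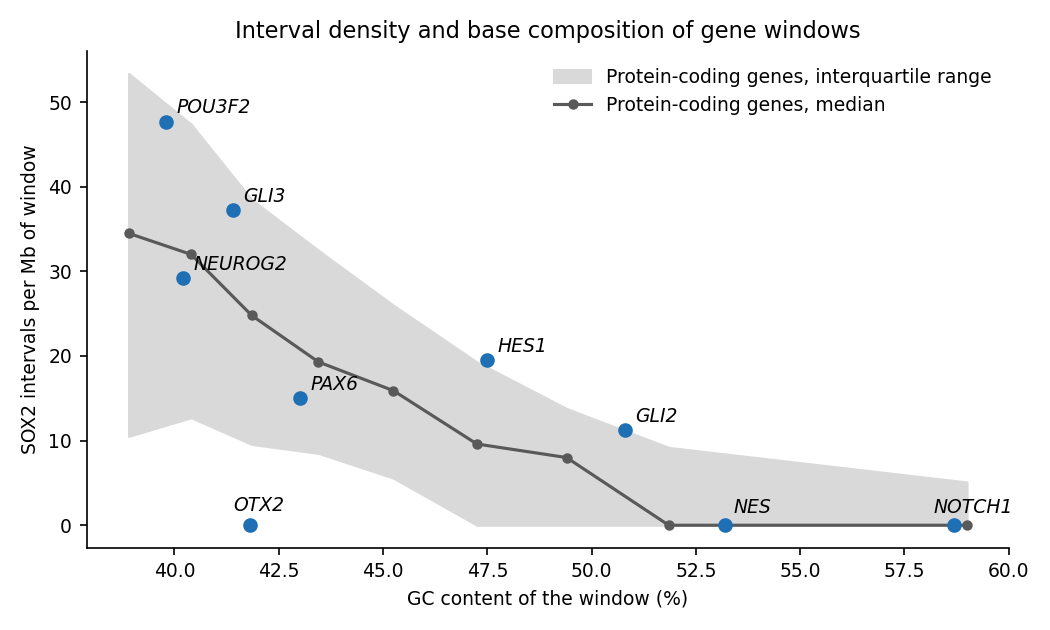
SOX2 intervals per Mb of window (vertical axis) against the GC content of the window in percent (horizontal axis). Blue points are the 9 genes, and the grey line and band are the median and interquartile range of protein-coding genes in 9 of the 10 bins of GC content, placed at bin midpoints. The lowest bin, which holds none of the 9 genes and has a lower median than the second (29.7 against 34.5 per Mb), is left out. OTX2 sits at 0 where the band does not reach 0, whereas NES and NOTCH1 sit on the median of their bin.

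Intervals of the SOX2-DBD list were found at 3 of the 9 genes, GLI3, POU3F2 and NEUROG2, against 39.3% of protein-coding genes. Among the 7 members with windows of 100 to 160 kb it was 2, against 29.9% of genes with such windows. Intervals exclusive to SOX2-DBD were found at 0 of the 9, where 4.72% of protein-coding genes had one. Of the 31 SOX2 intervals, 16.1% (7.09 to 32.6) were shared, which includes the 24.7% of the whole SOX2 list. In the GLI3 window the share was 20.0% (7.05 to 45.2), and in the other windows together 12.5% (3.5 to 36). At this number of intervals a difference from the whole list was not detectable. A shared interval has the same position and signal in both lists, and the files do not say in which group the signal was measured, so no level of SOX2 was set against one of SOX2-DBD.

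The members' intervals were ordinary in signal and width for the list. Their median total signal was 2128 against 2375 in the SOX2 list, with a range of 1190 to 7253, and 41.9% (26.4 to 59.2) were above the list's median. Median width was 521 bp against 513 bp. By class, SOX2-only intervals near the 9 genes had a median total signal of 1902 against 2278 in the list, and the 5 shared ones had 2651 against 2742. The down-sampled list held 54.8% (37.8 to 70.8) of the 31, and 64.3% of the whole SOX2 list. It held both PAX6 intervals, 4 of 5 at POU3F2, 3 of 4 at GLI2 and 8 of 15 at GLI3, and none at HES1 or NEUROG2.

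**Figure D4:**
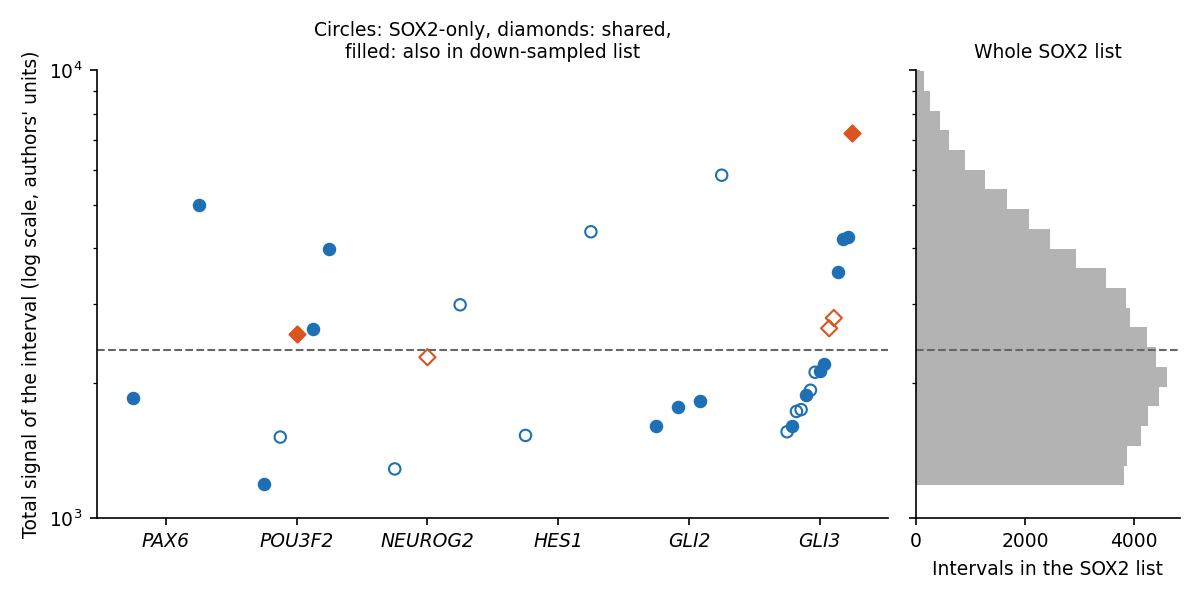
Total signal of each interval on a log scale, in the units of the deposited lists, for the 6 genes with intervals (left), and the distribution of the whole SOX2 list (right, bars are numbers of intervals, 163 of which lie above the top of the axis and are not drawn). Circles are SOX2-only and diamonds shared, filled where the down-sampled list also has the interval, and the dashed line is the list's median of 2375. The 2 intervals at HES1 and the 3 at NEUROG2 are all open symbols.

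None of the 31 centres lay within 1 kb of the outermost annotated 5′ end of its gene, and 3 lay within 10 kb, 1 at HES1 and 2 at GLI3. The 2 at GLI3 lie upstream of its canonical transcript, so counts made from canonical starts would differ. Upstream of the 5′ end lay 3 of the 31 (9.68%, 3.35 to 24.9). Each window reaches only 50 kb upstream, while the rest of it is gene body and downstream sequence. These position counts were not made for other genes, so they have no background here. In all, 15 intervals lay in the body of a member, 7 in another protein-coding gene, 1 in a long non-coding RNA gene only and 8 outside annotated genes. The centre was in an exon of a canonical transcript in 3, namely HES1 exon 4 and the FBXL4 exons.

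The SOX core was present in the central 200 bp of 18 of the 31 intervals (58.1%, 40.8 to 73.6), against 47.3% of the whole SOX2 list and 27.7% of equal windows placed 10 kb downstream of the list's intervals. The difference from the whole list was within counting error. The central windows had a median GC content of 33.5% both for the 31 and for the list. The GC content of the downstream windows is not given, so they are not a background matched for composition. The share depended on the search. In the central 100 bp it was 32.3% (18.6 to 49.9), against 26.8% of the list and 14.6% downstream. For a longer SOX motif of 8 letters in 200 bp it was 16.1% (7.09 to 32.6), against 12.2% and 6.72%. Under both settings the list's share again lay within the counting interval of the 31. In the 15 intervals of the gene bodies alone the 200-bp share was 86.7%, above the counting interval of the 31. Of these 15, which are part of the 31, 12 were at GLI3. The share for gene bodies over the whole list is not given, and the higher share was not tested. Matches were unequally spread over the genes. They were found in 11 of 15 central windows at GLI3, 3 of 4 at GLI2, 2 of 2 at HES1 and 2 of 5 at POU3F2, and in none of the 3 at NEUROG2 or the 2 at PAX6. Over their whole length, 25 of the 31 intervals held at least 1 match. The letters are common, and the windows of the 9 genes contained 2132 matches, of which 58 (2.72%) lay inside a SOX2 interval. Over the genome this was 2.01%.

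The AP-1 sequence, the site of JUN and FOS proteins, was present in 5 of the 31 central windows (16.1%, 7.09 to 32.6), against 9.14% of the whole SOX2 list and 2.98% of the windows 10 kb downstream. The share in the whole list lay within the counting interval. In the central 100 bp the shares were 6.45% (1.79 to 20.7), 4.71% and 1.46%. Of the 5 with a match in 200 bp, 3 were at GLI3, 1 at GLI2 and 1 at POU3F2. The octamer was present in the central 200 bp of 1, the HES1 interval shown above, against 2.93% of the list and 2.07% downstream. Over their whole length, 4 of the 31 intervals held it.

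A chosen list of 70 further neural progenitor, Notch and Hedgehog genes was counted in the same way. SOX2 intervals were found at 51 of them (72.9%) and SOX2-DBD intervals at 27 (38.6%), both close to the 69.5% and 39.3% of all protein-coding genes. Neural progenitor transcription factors had SOX2 intervals at 14 of 25 and SOX2-DBD intervals at 2 of 25, whereas progenitor and radial glia proteins had them at 10 of 10 and 8 of 10. Median densities were 9.34 and 31.2 per Mb, against 11.7 for all protein-coding genes and 15 for the 9 members. No test of these differences was made, because the genes share 1 library for each protein and their windows differ in length and composition.

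In the Notch group, 15 of 22 genes had a SOX2 interval. The densest windows were those of MAML2, a coactivator of Notch, with 42 intervals of which 18 were shared (90 per Mb), and of HEY2, a Notch-responsive repressor, with 8 (70.4 per Mb). In the Hedgehog group 12 of 13 genes had one, led by the coreceptors GAS1 with 4 (38.8 per Mb) and BOC with 6 (34.0 per Mb). PTCH1, the Hedgehog receptor, was the one without. MEIS1 and MEIS2, homeobox factors of the TALE class, led the transcription factors with 14 and 16 intervals (58.2 and 51.3 per Mb), of which 7 and 0 were shared. Among progenitor proteins HMGA2, a chromatin protein of early progenitors, had 21 intervals with 9 shared (86.8 per Mb), and CDH2, the neural and mesenchymal cadherin, had 23 with 8 shared (66.7 per Mb).

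**Figure D5:**
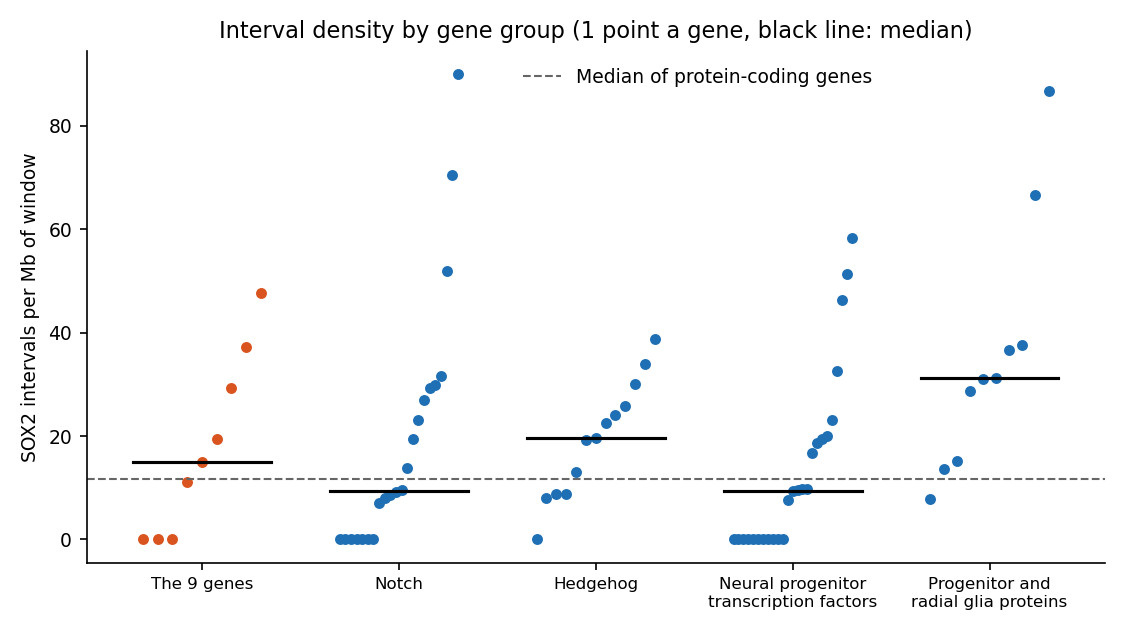
SOX2 intervals per Mb of window (vertical axis) for the 9 genes (orange) and 70 further genes in 4 groups (blue), 1 point a gene, with black lines at group medians and a dashed line at the median of protein-coding genes. The 9 genes span 0 to 47.7 per Mb, inside the range of the Notch group, which reaches 90.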

How the data were processed

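CUT&RUN peak lists of V5-tagged SOX2 and SOX2-DBD in BJ fibroblasts were analysed, with sample groups taken from the titles in the labels. Per the submitters' processing notes, reads were processed on hg19 with Bowtie2 2.3.4.1, SAMtools, bedtools 2.27.1, SEACR 1.3 and deepTools 3.5.0, whose roles, thresholds and pooling of replicates are not given in the sources used here. The deposited signal of each interval (total and maximum) has no stated normalization, so it was used only to rank within the SOX2 list, which itself includes shared rows of unstated origin. Exact duplicate rows (1654 in each list) were counted once, leaving 57907 SOX2 and 15220 SOX2-DBD intervals, and 38291 in the down-sampled list.

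Gene bodies were those of GENCODE release 44 mapped to GRCh37, and 0 intervals passed a chromosome end. Intron and exon numbers are those of the canonical transcript, whereas 5′ ends are the outermost annotated ends of the gene bodies. Shares have Wilson 95% intervals and densities exact Poisson ones. No test was made, since the lists analysed come from 1 sample entry of each protein. The genes, the further gene list, the named-interval rule (for each gene, the highest total signal per class and the interval nearest the 5′ end) and the comparisons were chosen with earlier results of these data known. The bands of window length, the bins of GC content and the upstream distances were added, and further intervals named, after the values were seen. The counting code was tested on simulated data. Alternatives covered the flank, overlap rule, interval set, SOX2 list, motif and motif window. Computations used matplotlib 3.10.9, pyfaidx 0.9.0.4, samtools 1.23.1, scipy 1.17.1, pandas 2.3.3 and numpy 2.4.6 under python 3.11.15.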

Additional observations from a re-analysis of the deposited data

How the results depend on the processing

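No paired analysis was possible because the lists analysed here were deposited under 1 sample of each protein, and leaving out replicates was not possible for the same reason. The number of SOX2 intervals in the windows followed the flank by construction, with 15 in the gene bodies, 17 with 10 kb and 55 with 100 kb on either side. The upper 50% by total signal kept 13, and the down-sampled list had 17. Densities were 8.22 per Mb in the upper 50% and 10.8 in the down-sampled list. Both sets hold fewer intervals than the full list, which lowers density by construction, and their densities over the genome are not given. The genes with a SOX2 interval numbered 3 of 9 with no flank and with 10 kb. Those with a SOX2-DBD interval numbered 1 with no flank, with 10 kb and in the upper 50%. Shorter windows and smaller sets lower both counts by construction. The shares of all protein-coding genes under these settings are not given, and those for 50 kb are no background for them. The SOX core share was 32.3% in 100-bp windows, 16.1% for the longer motif WWCAAWGG and 86.7% in intervals of the gene bodies, and the AP-1 share was 6.45% in 100-bp windows. Of the 51 alternative values, these 16 moved, none reversed, and the other 35 stayed within 1.5 times the count, or within the counting interval, given in the report. Unknown read depth and the lack of lists from a second sample limit all counts, and genes without an interval may have had sites below detection.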

Other observations

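DACH1, a transcriptional regulator of progenitors in the list of 70 genes, had 0 intervals over a window of 529 kb in each of the 3 lists. The nearest SOX2 interval was 274 kb from the gene body. Its GC content of 34.3% placed it in the lowest of the 10 bins, in which 28.3% of genes had no SOX2 interval. Of the 125 protein-coding genes with windows of 500 to 560 kb, 15 (12.0%) had no SOX2 interval, and the median was 15. It was singled out after its value was seen.

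With windows widened to 100 kb on either side, NEUROG2 had 9 SOX2 intervals of which 4 were shared, against 3 and 1 within 50 kb. GLI3 had 24 with 5 shared, and GLI2 and POU3F2 had 7 each with 1 shared, which for GLI2 was the first. PAX6 had 4, HES1 3 and NES 1, while OTX2 and NOTCH1 had none.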
